A study of Flechtneria rotunda with 10 samples.

Results

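Rehydrated against dry is the comparison of the first hour of recovery in Flechtneria rotunda, a green alga of desert origin, strain SEV3VF49. Its members are the 4 libraries of these stages among 10 in the series, and all assembled genes with enough counts to be tested, 10467 of 17148 listed. The 2 rehydrated libraries came from dried drops of culture given water and collected 1 h later. The 2 dry libraries came from drops that had flattened fully and then stayed 11 h more in the drying chamber, about 24 h after the start. Both stages began as 40 µL drops of a 6-week-old flask culture on a round cover glass, so every rehydrated drop had also passed through drying. The other stages served as context and for the estimate of spread, with 2 libraries each of hydrated drops, early desiccation (2.5 h, 25% of the volume lost) and late desiccation (7.5 h, 60% lost). RNA was sequenced after removal of ribosomal RNA. Whether replicates were separate cultures is not stated, so p-values reflect only how these libraries vary, perhaps for technical reasons.

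Algae of desert crusts stop growth and most metabolism when they dry, and resume respiration and photosynthesis soon after wetting. Messenger RNA can persist in dried cells, so RNA found shortly after wetting may be RNA kept through the dry state or RNA made since. Stress responses of green algae to drying include protective proteins, antioxidants and the repair of photosystems. None of these groups could be followed here, because the genes carry assembly identifiers of the Trinity type, which the files do not pair with names, functions or positions. At most 2 genes that rose and 2 that fell are therefore named, and the others are described by counts, sizes and time course. In bulk RNA, fewer cells and less RNA per cell cannot be told apart.

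The rehydrated libraries held 2736467 and 1696655 counts, and the dry ones 2034150 and 2211626. The rehydrated pair was the less alike in composition. The 10 genes with the most counts took 46.9% of rehydrated replicate 1 and 27.6% of rehydrated replicate 2, against 42.3% and 39.3% of the dry libraries. Counts differed by more than counting error within both pairs (chi-square over its degrees of freedom 42.7 for the rehydrated and 8.53 for the dry pair), so each was kept as a separate library. Once scaled by TMM (trimmed mean of M-values, which sets each library by its bulk of genes), log2 CPM (library-scaled counts) correlated across genes at 0.916 within the rehydrated and 0.924 within the dry pair.

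One hour after water, 286 genes had risen and 250 had fallen relative to the dry stage, 2.73% and 2.39% of those tested (5.12% together; edgeR quasi-likelihood test, Benjamini-Hochberg adjusted p below 0.05). Called rises were the larger on the TMM scale. Their log2 fold change had a median of 1.69 with quartiles of 1.27 and 2.34, against -1.35 with quartiles of -1.61 and -1.15 among falls. Changes of at least 4-fold were fitted in 98 rises and 21 falls, or 95 and 21 when a stage without counts was given 3. The median standard error of the log2 fold change was 0.37 among rises and 0.29 among falls. Risen genes had the lower mean level over all libraries, with a median of 4.49 log2 CPM against 5.68 in fallen genes. With fewer counts a change must be larger to be called, so the sizes are those of called genes only. Among the 286 rises 19 genes had no count in either dry library, as had 435 of all 10467 tested genes. At the floor of 3 counts over the dry stage the 19 risen genes were at least 3.16-fold to 30.9-fold higher in rehydrated drops. Their median bound was 7.44-fold, and both their floor and their counts cover counting error only.

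The calls lay close to the threshold. The smallest adjusted p was 0.00496, the median over risen genes was 0.0364, and 1360 genes had one below 0.1. The last risen gene called had an adjusted p of 0.0498 and the first left out one of 0.0502. At an unadjusted p below 0.05 there were 2638 genes, 25.2% of those tested. The balance of called directions moved with the scaling. With edgeR on median-of-ratios size factors 210 genes were higher and 290 lower, and with library totals alone 770 and 20. DESeq2, which differs from edgeR in its test as well as its scaling, gave 258 and 544. Across tested genes the fold changes centred on a log2 value of 0.07 under TMM and 0.60 with library totals alone, so the number of calls in each direction is one on the TMM scale. With library totals alone all 286 risen genes still had a positive and all 250 fallen genes a negative log2 fold change, which the choice of genes with separated libraries favours. In a fit of the 4 libraries alone, where the filter left 6375 genes, none passed in edgeR (1425 at an unadjusted p below 0.05), where DESeq2 called 149. The limma fits given here used the deposited length-scaled signal of genes with a mean of at least 1, not the filtered counts. With the 4 libraries alone limma called none. Without dry replicate 1 no gene passed in edgeR either (1906 at an unadjusted p below 0.05), where DESeq2 called 118 and limma 21, and without dry replicate 2 edgeR called 71.

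The named genes show the widest gap between the stages and the widest difference between the rehydrated libraries, among called genes with enough counts. Each was taken from the 225 risen or 232 fallen genes with at least 20 counts in both libraries of the higher stage. The best agreed had the widest gap between the nearest rehydrated and dry libraries. That label does not rank how close the 2 rehydrated libraries were to each other. In the best agreed rise they differed by 0.62 log2 CPM, beside a median of 0.38 over risen genes. The least agreed had the widest difference between the 2 rehydrated libraries within those 225 or 232 genes. For rises the minimum of 20 counts applied to the rehydrated libraries themselves, so rises with a low rehydrated library were left out. The least agreed rise differed by 1.53 log2 CPM, whereas the widest difference over all risen genes was 3.67. None has a name or a known function in the files.

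The best agreed rise was TRINITY_DN65956_c0_g4. It had 25 and 35 counts in the rehydrated libraries and 0 in both dry libraries, or 12.8 and 20.05 CPM in rehydrated drops and 0 in dry drops. Taking 3 counts over the dry stage as the floor, it was at least 13.5-fold higher in rehydrated drops, with a lower 95% counting limit of 10.3 (edgeR adjusted p = 0.0330). The stages did not overlap, and both rehydrated libraries also stood above the other 6 libraries. Those were at 1.76 and 7.30 CPM in hydrated, 7.18 and 6.55 CPM in early and 8.55 and 2.53 CPM in late desiccation.

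The sum over the read cluster of this gene did not move with it. A read cluster is the set of listed genes whose identifiers differ only in their last number. The 3 genes of the cluster together had 601 and 585 CPM in rehydrated drops, against 756 and 575 CPM in dry drops, a mean log2 difference of -0.15. Over the cluster the stages overlapped. The other 2 genes held nearly all of these counts, so the sum could not show a change of the size of this gene's. Whether estimated counts were divided differently among the 3 genes was not tested, and the value of the single gene is given with that limit. Its adjusted p was 0.0549 without rehydrated replicate 2, 0.144 without dry replicate 1 and 0.104 without dry replicate 2.

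TRINITY_DN67941_c0_g2, the best agreed fall, had 0 counts in both rehydrated libraries and 22 and 32 counts in the dry libraries, where it was at 20.5 and 22.5 CPM. It was at least 26.6-fold lower in rehydrated drops at the floor of 3 counts over the rehydrated stage, with a lower 95% counting limit of 19.99 (edgeR adjusted p = 0.00927). Its level had been low before drying and climbed on the way to the dry stage. It stood at 1.76 and 0.73 CPM in hydrated, 3.59 and 2.09 CPM in early and 5.34 and 4.81 CPM in late desiccation. Its read cluster of 3 genes had 11.3 and 16.0 CPM in rehydrated drops against 29.8 and 31.6 CPM in dry drops. The mean log2 difference of this sum was -1.15. The sum includes the gene itself, which held 22 and 32 of the cluster's 32 and 45 dry counts. In rehydrated drops the whole sum came from the other genes of the cluster, which did not fall. Whether estimated counts were divided differently among the 3 genes was not tested. The call was lost without dry replicate 1 (edgeR adjusted p = 0.0702).

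The least agreed rise, TRINITY_DN72247_c7_g2, had 186 and 57 counts in the rehydrated libraries, against 11 and 26 counts in the dry libraries. These were 95.4 and 32.6 CPM in rehydrated drops and 10.2 and 18.2 CPM in dry drops (log2 fold change 2.14, SE 0.48, edgeR adjusted p = 0.0349). Rehydrated replicate 1 was high, and rehydrated replicate 2 lay near the hydrated libraries, which had 35.5 and 29.2 CPM. Without rehydrated replicate 1 the log2 fold change was 1.18 (edgeR adjusted p = 0.104), so the call rested on that library. It also missed the threshold without dry replicate 1 (edgeR adjusted p = 0.188) and without dry replicate 2 (0.0788). Its level was lower on the way to the dry stage, at 20.04 and 27.7 CPM in early and 12.8 and 16.6 CPM in late desiccation. Its read cluster of 5 genes had 140 and 69.9 CPM in rehydrated drops and 53.0 and 73.0 CPM in dry drops, so over the cluster rehydrated replicate 2 overlapped with the dry stage.

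The least agreed fall, TRINITY_DN75187_c0_g1, had 2 and 20 counts in the rehydrated libraries and 40 and 35 counts in the dry ones. The levels were 1.03 and 11.5 CPM in rehydrated drops against 37.2 and 24.6 CPM in dry drops (log2 fold change -2.33, SE 0.60, edgeR adjusted p = 0.0468). Both rehydrated libraries lay below both dry ones, replicate 1 by far more. Without rehydrated replicate 1 the log2 fold change was -1.38 (edgeR adjusted p = 0.0849), and without rehydrated replicate 2 it was -4.83 (0.00760). The call was also lost without dry replicate 1 (edgeR adjusted p = 0.217) and without dry replicate 2 (0.0835). Its dry level was near its hydrated level of 37.6 and 39.4 CPM, and late desiccation was lower, at 12.4 and 16.5 CPM. In early desiccation it had 55.0 and 39.3 CPM. The 2 genes of its cluster together had 32.3 and 45.8 CPM in rehydrated drops and 89.3 and 79.3 CPM in dry drops.

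**Figure D1:**
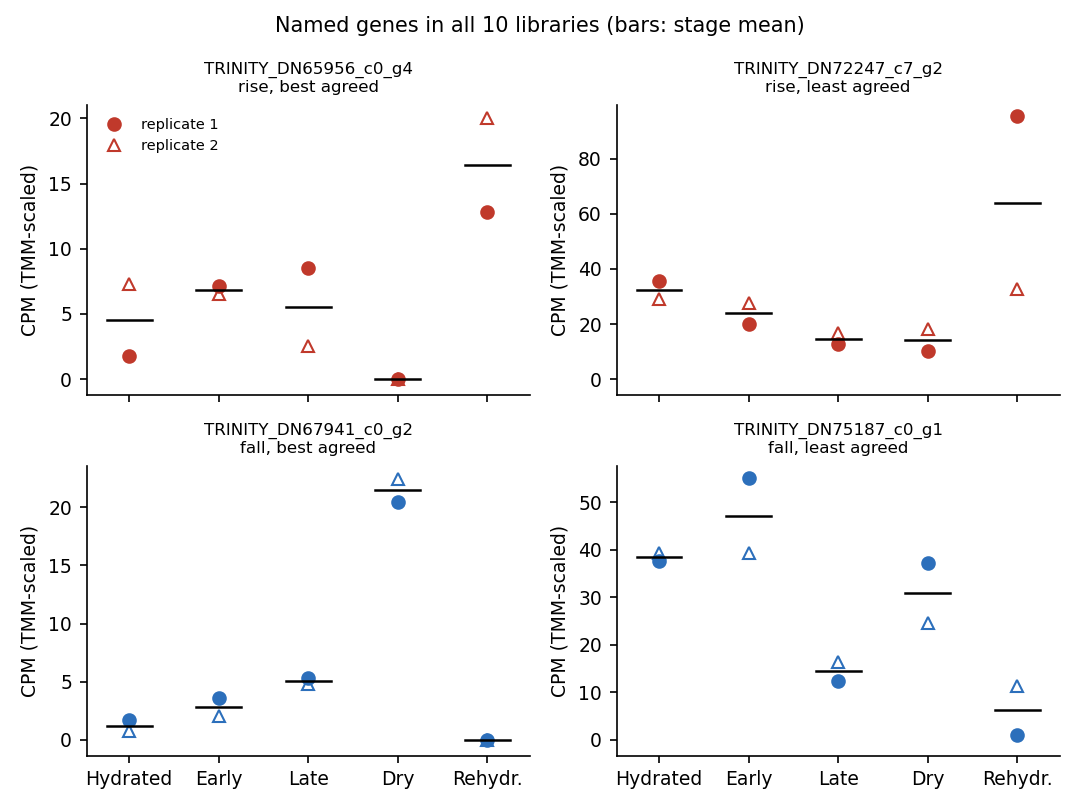
CPM (TMM-scaled, linear axis) of the 4 named genes in all 10 libraries, with filled circles for replicate 1, open triangles for replicate 2 and bars for stage means. In the best agreed rise and fall one of the 2 stages is at 0 in both libraries, and in the least agreed genes one rehydrated library stands far from the other.

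Over all risen genes both rehydrated libraries moved by about the same amount. The median difference from the mean of the dry libraries was 1.66 log2 CPM in rehydrated replicate 1 and 1.68 in replicate 2, beside 0.09 and 0.06 over all tested genes. Among fallen genes the medians were -1.37 and -1.28. Rehydrated replicate 1 was the further from the dry mean in 139 risen genes and replicate 2 in 147. Among the fallen genes, replicate 1 was the further in 143 and replicate 2 in 103. Both rehydrated libraries were at least 2-fold from the dry mean in the same direction in 228 risen and 177 fallen genes, against 1446 of all 10467 tested genes. These genes were chosen for a change in these libraries, so the counts describe the calls and do not support them.

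The difference between the 2 rehydrated libraries, which needs no dry library, was smaller in called genes than in tested genes at large. Its median size was 0.38 log2 CPM in risen genes, 0.30 in fallen genes and 0.53 over all tested genes. The libraries were within 2-fold of each other for 260 of 286 risen genes (90.9%), 231 of 250 fallen genes (92.4%) and 76.7% of all tested genes. Of the 536 called genes 7 (1.31%) differed by more than 4-fold between the rehydrated libraries, beside 4.61% of all tested genes. A test that divides by the spread favours such genes, and called genes also had more counts, with medians of 64.8 in rehydrated and 39.3 in dry libraries per gene. The dry pair was similar, with a median size of difference of 0.38 in risen, 0.33 in fallen and 0.50 in all tested genes.

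All 536 called genes had both rehydrated libraries on one side of both dry libraries, a separation that 49.3% of all tested genes also showed (26.1% higher, 23.1% lower). The gap between the nearest libraries of the 2 stages is the stricter measure. It had a median of 1.17 log2 CPM among risen genes and 0.96 among fallen genes, and was never below 0.47. It reached 2-fold in 185 risen and 112 fallen genes. Another 395 genes had a gap of at least 2-fold and were not called. Their counts were low, with a median of 6.5 in rehydrated and 1.5 in dry libraries. Likewise 761 genes had a fitted change of at least 4-fold without a call, 599 of them higher and 162 lower, at a median of 3.5 counts in rehydrated and 0.5 in dry libraries.

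Agreement followed depth. When tested genes were ranked by mean level and cut into 4 equal parts, the median size of the difference between the rehydrated libraries was 0.74 log2 CPM in the lowest part and 0.40 in the highest. The counting error expected of that difference had a median of 1.18 and 0.17 in the same parts, so the difference exceeded counting error only in the highest of these 2 parts, with a prior count of 2 drawing low values together. Of the lowest part 0.611% of genes were called (11 rose, 5 fell), and of the highest part 10.8% (115 rose, 168 fell).

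Pairs that share no library gave a second view of the same question. The difference of rehydrated replicate 1 minus dry replicate 1 and that of rehydrated replicate 2 minus dry replicate 2 correlated across the 10467 genes at a Pearson r of 0.34, and at 0.21 with the dry libraries exchanged. The points share the TMM scale and genes are not independent replicates. In the highest part by level r was 0.59 and 81.3% of genes had the same sign, and in the lowest part r was 0.16 and 49.3% had the same sign. A gene without counts in both libraries of a pair had no sign there and entered as not the same, which lowers these shares. How many such genes there were was not counted, so 49.3% cannot be read against an even split. Over all tested genes 752 were at least 2-fold higher in both pairs, 405 at least 2-fold lower in both, and 276 at least 2-fold apart in opposite directions. With the dry libraries exchanged these were 675, 363 and 399.

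**Figure D2:**
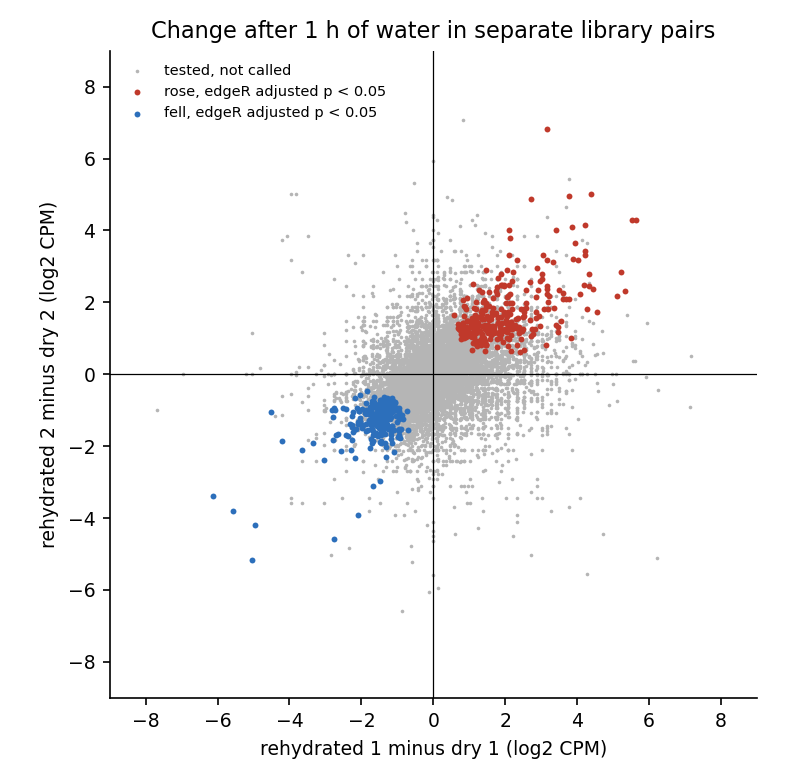
Log2 CPM of rehydrated minus dry in replicate 1 (x axis) and replicate 2 (y axis) for each tested gene, with 286 risen genes in red, 250 fallen genes in blue and the rest in grey. Called genes lie in the upper right and lower left quadrants, while many uncalled genes lie along one axis, changed in one pair and near 0 in the other.

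A part of the calls held with a single rehydrated library. With replicate 2 alone 255 of the 536 genes were still called in the same direction, and with replicate 1 alone 283. There were 132 genes (24.6%) called in both of these fits, 84 that rose and 48 that fell, and 130 genes lost in both. Each fit also called genes that were not among the 536, and these are left out of the overlap. The fits share the dry libraries, and the lone rehydrated library is assumed to vary like the other stages. Genes called in both fits had median log2 fold changes of 1.87 and -1.56, and the rehydrated libraries differed by a median of 0.20 log2 CPM in them. Being called with each library alone favours such closeness, so the 0.20 describes the choice and does not support the calls. DESeq2 on all libraries, from the same counts, called most of them as well. It also called most of all called genes, 209 of the 286 rises and 233 of the 250 falls. Of the genes called in both fits that had no count in either dry library, DESeq2 called none. With dry replicate 1 as the lone dry library 56 of the 536 remained, and with dry replicate 2 none.

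Some genes stood far apart between the rehydrated libraries. With at least 50 counts in one of the 2, 16 tested genes were at least 8-fold apart between the rehydrated libraries, beside 10 between the dry libraries on the same terms. Both limits were chosen after the values were seen. Among the genes with the most counts the differences between the rehydrated libraries were also wide. The 10 genes with the largest mean share of counts over the 4 libraries included none that was called, with log2 fold changes between -0.86 and 0.59 and adjusted p from edgeR between 0.135 and 0.664. The first of them, TRINITY_DN91380_c13_g1, took 29.4% of rehydrated replicate 1 and 13.5% of replicate 2, against 25.6% and 24.3% of the dry libraries. It is mentioned for its share, after its values were seen, and is neither a rise nor a fall. Of the 100 genes with the largest shares 10 fell and none rose. Risen genes took 1.28% and 2.03% of the counts of the rehydrated libraries, against 0.382% and 0.499% of the dry libraries. Fallen genes took 2.94% and 4.77% of the rehydrated libraries, against 6.93% and 6.89% of the dry libraries.

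Set against the stages before drying, most risen genes lay above the hydrated level. Their median log2 CPM was 4.22 and 4.32 in the hydrated libraries, 4.28 and 4.38 in early and 4.15 and 4.18 in late desiccation, 3.31 and 3.39 in the dry and 5.05 and 4.91 in the rehydrated libraries. All tested genes together had medians of 3.39 and 3.39 in hydrated, 3.02 and 3.18 in dry and 3.23 and 3.21 in rehydrated libraries. Rehydrated means were above hydrated means in 216 of the 286 (75.5%), as in 46.2% of all tested genes. This was not particular to rises, since 166 of the 250 fallen genes (66.4%) also stood above hydrated. Means were more than 2-fold above hydrated in 120 risen genes (42.0%), 33.2% of fallen genes and 22.3% of all tested genes. The rehydrated stage was the highest of the 5 in 181 risen genes (63.3%), as in 17.4% of all tested genes, and the choice of rises uses the rehydrated values, which favours that count. These are positions of stage means and were not tested.

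Several time courses made up the rises. In 108 genes the dry mean was more than 2-fold below the hydrated mean and the rehydrated mean was back within 2-fold of it. In 19 more the dry mean was as low and the rehydrated mean more than 2-fold above hydrated, and in 16 both means were more than 2-fold below. In 74 genes the dry mean was within 2-fold of hydrated and the rehydrated mean more than 2-fold above, and in 42 both were within 2-fold. The remaining 27 were more than 2-fold above hydrated in the dry stage already and went higher. Of all 10467 tested genes, 1308, 38, 2073, 521, 3560 and 1776 held the same positions, in the order given. In those the rehydrated mean need not be above the dry mean. The choice of rises uses the dry and rehydrated values, which favours positions low in dry or high in rehydrated drops.

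Fallen genes were mostly genes with a peak in the dry stage. Their median log2 CPM was 4.94 and 4.92 in the hydrated libraries, 5.36 and 5.21 in early and 4.90 and 4.85 in late desiccation, 6.74 and 6.46 in the dry and 5.27 and 5.41 in the rehydrated libraries. In 184 (73.6%) the dry mean was more than 2-fold above the hydrated mean, as in 22.2% of all tested genes. Of the 184, 99 were within 2-fold of hydrated 1 h after water and 83 were still more than 2-fold above. Among all tested genes 544 and 1776 held these positions. In 37 other fallen genes the dry mean was within 2-fold of hydrated and the rehydrated mean more than 2-fold below it. That held for 640 of all tested genes. The dry stage was the highest of the 5 in 211 of the 250 (84.4%), as in 22.6% of all tested genes. The choice of falls uses the dry values, which favours that count.

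**Figure D3:**
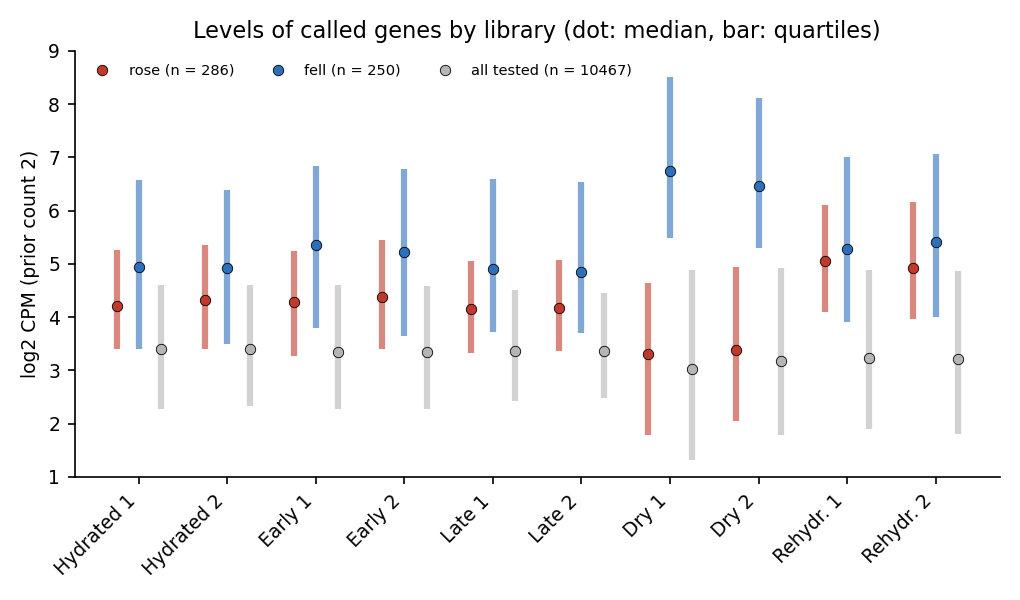
Log2 CPM (prior count 2) in each of the 10 libraries, as medians (dots) with quartiles (bars), for the 286 risen genes in red, the 250 fallen genes in blue and all 10467 tested genes in grey. Medians of risen genes are lowest in the dry and highest in the rehydrated libraries, and those of fallen genes are highest in the dry libraries.

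Gene length parted the rises from the falls. Relative length, the ratio of expected count to length-scaled signal in the deposited tables, with the median of each library's genes set to 1, had a median of 1.47 among risen genes, 0.66 among fallen genes and 0.95 among all tested genes. Of 3 equal parts by length, the shortest genes held 37 rises and 142 falls, the middle part 73 and 68, and the longest 176 and 40. The median log2 fold change over all genes of these parts was -0.11, 0.03 and 0.27. The 2 rehydrated libraries had median differences from the dry mean of -0.04 and -0.10 among the shortest and 0.24 and 0.29 among the longest genes. Both subtract the same dry mean, so a length trend in the dry libraries would enter both. For dry minus hydrated the median log2 fold changes were -0.18, -0.31 and -0.35 from shortest to longest. In which stage the trend arose was not tested. Length entered the reads of each gene, so longer genes also had more counts, and no measure of RNA integrity was used here. With each library's trend with length removed, 140 genes were higher and 136 lower, 139 and 118 of them among the 286 and 250. Their median relative lengths were then 1.17 and 0.98.

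**Figure D4:**
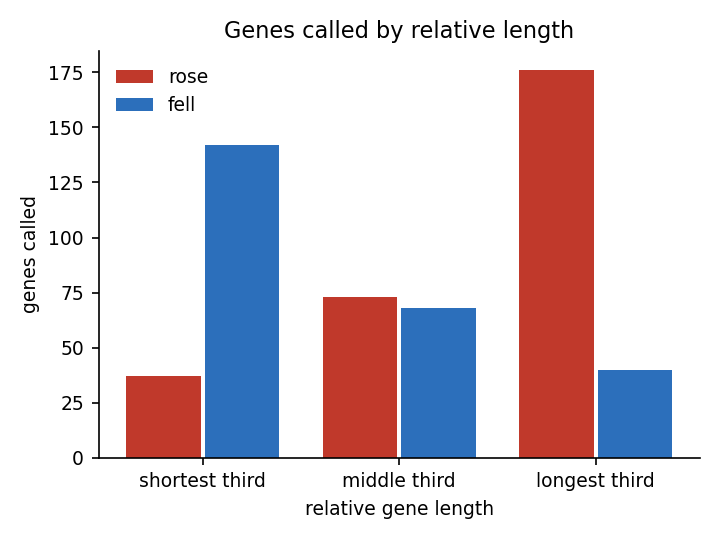
Number of genes that rose (red) and fell (blue) in each of 3 equal parts of the tested genes by relative length. Falls outnumber rises 142 to 37 among the shortest genes, and rises outnumber falls 176 to 40 among the longest.

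Some called genes had listed neighbours in the assembly among which reads could be divided. Another listed gene shared the read cluster of 84 risen (29.4%) and 82 fallen genes (32.8%), and of 29.0% of all tested genes. Summed over the cluster with the called gene included, the mean log2 difference had the gene's sign in 78 of the 84 and 79 of the 82. It reached 2-fold in 61 and 57. The called gene's own change enters its sum, so these counts do not support the calls. No sum without the called gene was made. The medians of these sums were 1.14 and -1.16. Division of reads, and similarity to genes outside the tables, were not measured. The best agreed rise above was among the 6 risen genes whose cluster sum had the opposite sign.

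**Figure D5:**
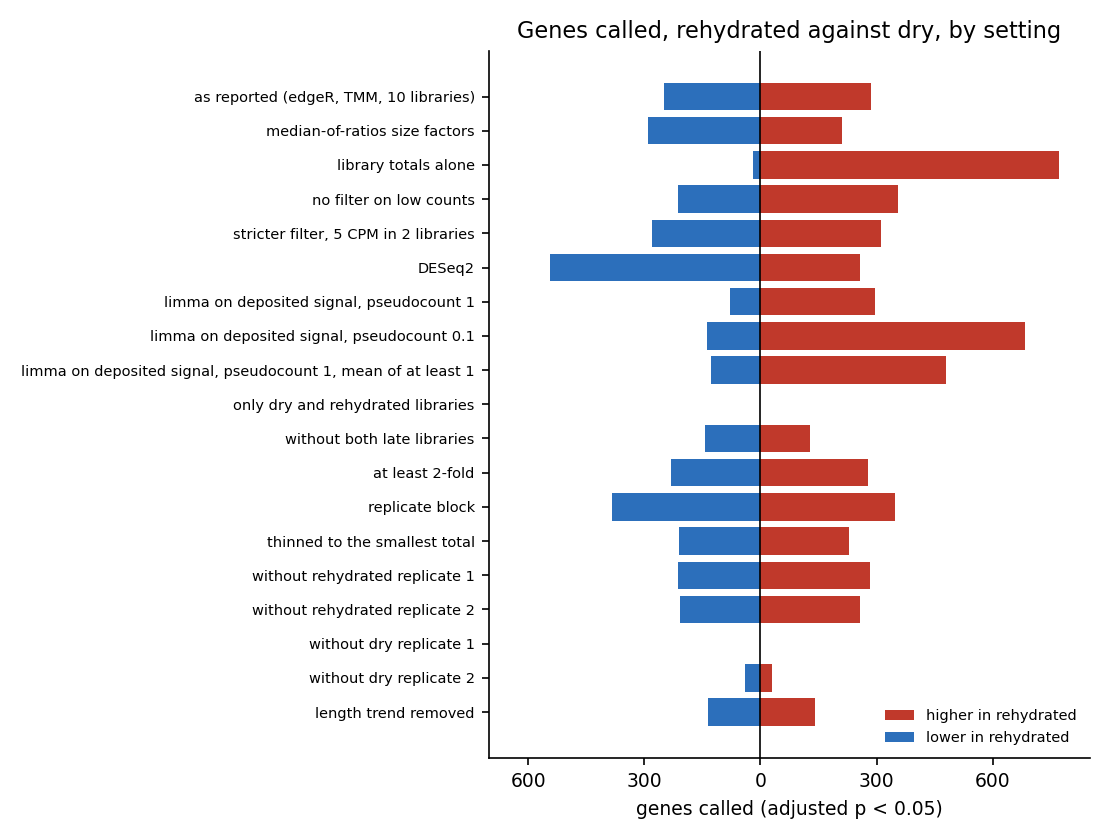
Genes called in rehydrated against dry under each setting (adjusted p below 0.05), with those higher in rehydrated drawn to the right in red and those lower to the left in blue. The counts are 286 and 250 as reported, 770 and 20 with library totals alone, and 0 with the 4 libraries alone or without dry replicate 1.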

How the data were processed

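The authors deposited expected counts per assembled gene, with 10.1% to 19.7% of values per library not whole, and an expression signal that the authors scaled by TMM, per the name of the deposited file. Per the submitters' processing notes, CASAVA 1.4, Trimmomatic 0.35, Bowtie2 2.2, RSEM 1.2.28 and DESeq2 were used. Which reads were assembled, and by what test the genes named as differentially expressed in the file name were chosen, is not given in these sources, so shares are of these genes, and calls may in part be fixed by that choice. Columns were assigned to libraries from the replicate number and time code in their names. Relative length is the expected count over the signal.

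Counts were rounded and filtered with filterByExpr (minimum 10, total 15), which removed 0.155% to 1.17% of a library's counts. Libraries were scaled by TMM (factors 0.529 to 1.54) and fitted with edgeR 4.0.16 (R 4.3.3) over all 10 libraries and 5 stages, two-sided, threshold 0.05. Standard errors were derived from the F statistic. Log2 CPM used a prior count of 2. The 95% counting limits are exact Poisson limits. A fold against 0 uses 3 counts over the stage.

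The members, the rule for named genes and the alternatives were chosen with earlier results of these data known. The rule took, among called genes with at least 20 counts in each library of the higher stage, the rise and fall with the widest gap between stages and those with the widest difference between the rehydrated libraries. Alternatives were other scalings and filters, limma 3.58.1 on the log2-transformed signal, DESeq2 1.42.0, fewer libraries, thinned counts and the replicate number as a block. Removal of the length trend was chosen after seeing the data.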

Additional observations from a re-analysis of the deposited data

How the results depend on the processing

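Against 286 genes higher and 250 lower (536 in all), the count was within 1.5 times in total and in both directions with median-of-ratios size factors, no filter, a stricter filter, a 2-fold minimum and thinned libraries. The cause of the other shifts was not tested. Library totals alone gave 770 higher and 20 lower. DESeq2 gave 544 lower. On the log2(signal + pseudocount) scale, limma gave 79 lower with a pseudocount of 1, 822 genes (684 higher, 138 lower) with 0.1, and 480 higher and 129 lower among genes with a mean of at least 1. The fit of the 4 libraries alone gave 0 genes in all, 0 higher and 0 lower, by edgeR, with 1425 at an unadjusted p below 0.05 (DESeq2 149, limma 0). Without both late libraries 273 genes passed, 129 higher and 144 lower. With the length trend removed 276 passed, 140 higher and 136 lower. Leaving out each of the 4 libraries in turn gave 0 to 495 genes, 0 to 282 higher and 0 to 213 lower. The low values came without dry replicate 1 (edgeR 0, with 1906 at an unadjusted p below 0.05, DESeq2 118, limma 21) and without dry replicate 2 (71).

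With the replicate block 730 genes passed, 346 higher and 384 lower. Differences between replicates 1 and 2 correlated at 0.141 between the rehydrated and dry stages across genes, so the numbers are not shown to pair the libraries. The named genes kept their direction under every alternative that gave them a value. DESeq2 gave no adjusted p for TRINITY_DN65956_c0_g4 and TRINITY_DN67941_c0_g2. The least agreed fall missed the threshold in 10 alternatives, the least agreed rise in 6. The count of 491 called genes within 2-fold between the rehydrated libraries ranged from 427 to 489 under the alternatives run for it. Counts of genes past the hydrated level stayed within 1.5 times. Depth limits genes with few dry counts.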
